A study of Mus musculus with 36 samples.

Results

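Cxcl12, PDGF and VEGF signals are secreted factors and the receptors that bind them. Members are the 8 genes Cxcl12, Cxcr4, Pdgfa, Pdgfc, Pdgfra, Pdgfrb, Vegfa and Tgfb1, found as every probe of the deposited table that carries one of these symbols, out of 30869 gene symbols. Their levels were followed through 16 microdissected regions of the elongating mouse axis, to ask which regions hold the ligands and which the receptors. Illumina bead arrays measured 36 pools of wild-type tissue from embryos of the outbred MF1 stock. Each pool held 6 to 74 dissected pieces, and the RNA was amplified before hybridisation.

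At E7.5, the headfold stage, the regions were an anterior piece (A), a posterior piece that held the primitive streak (P) and a most posterior piece (PP). At E8.5 (2 to 5 somites) the streak gave its rostral end (St1) and its caudal end (St5), the node gave its rostral part (RN) and its border with the streak (NSB), and the epiblast beside them gave the caudal lateral region (CLE). In the tail bud they were the chordoneural hinge (CNH) from E9.5 to E13.5 (22 to 25, 32 to 35, 40 to 45, 50 to 55 and 60 to 63 somites) and the tail bud tissue behind the hinge (P-CNH) at E9.5, E10.5 and E11.5. CLE was epiblast alone, with the mesoderm and endoderm under it taken off. According to the study, endoderm stayed on the other pieces up to E8.5, and St5 and the E13.5 CNH probably included surface ectoderm. A, CLE, NSB and the CNH of E11.5 had 3 pools each and the other 12 regions 2, and these numbers limit the precision of every value. The arrays fell into 3 batches of 12, and batch 1 held all RN, St1, St5 and E10.5 pools with NSB replicates 1 and 2. NSB replicate 3, in batch 3, was the only array that tied batch 1 to the others, so each comparison of CLE with the other E8.5 regions rests on it. Probes detected per array ran from 10814 (E13.5 CNH replicate 2) to 16256 (St1 replicate 2), and signal over background from 2.28 (CLE replicate 1) to 15.1 (PP replicate 2).

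Cxcl12 is a chemokine that directs moving cells through the receptor Cxcr4, and gastrulating mesoderm and endoderm are among the tissues it acts in. Pdgfa and Pdgfc are ligands of Pdgfra, a receptor tyrosine kinase of early mesoderm, and Pdgfc must be cleaved by proteases such as Plat before it can bind. Vegfa drives the formation of blood vessels through Kdr and Flt1 with neuropilins as co-receptors, and Tgfb1 is stored in a latent form and signals through Tgfbr1 and Tgfbr2.

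Among the 9 marker lists used to check the regions, 4 of 5 node and notochord genes were higher in RN and 4 of 5 in NSB, each against the mean of the remaining E8.5 regions. In CNH 3 of these 5 were higher than in P-CNH over the 3 shared stages, among them Shh. Lateral mesoderm markers were higher in St5 for 5 of 5 genes. In E7.5 P, 4 of 5 caudal epiblast genes were higher and 2 of 3 anterior genes lower than in A, and 3 paraxial mesoderm genes of 3 tested were higher. In CLE 3 of 9 endoderm genes were lower (Sox17, Ttr and Ctsh). From these same samples the study had reported Sox17 and Ctsh as lowered in CLE, and Bmp4 and Tbx4 as raised in St5. For those genes the check is therefore not independent.

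The members had 17 probes, of which 5 were detected on no array (detection p not under 0.01) and 12 were tested. Each gene is represented by its probe with the highest mean log2 intensity. These probes were detected on all 36 arrays for Cxcl12, Pdgfa, Pdgfra and Vegfa, on 35 for Cxcr4, on 32 for Pdgfc and on 30 for Pdgfrb and Tgfb1. All values below are normalised log2 intensities, on which a probe that was not detected keeps a background value, and levels of different genes are not compared. A probe was called when its adjusted p was at most 0.05 and its fold change at least 1.5 in a limma fit over 21712 probes with batch as a term. Every p measures the spread between pools.

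**Figure D1:**
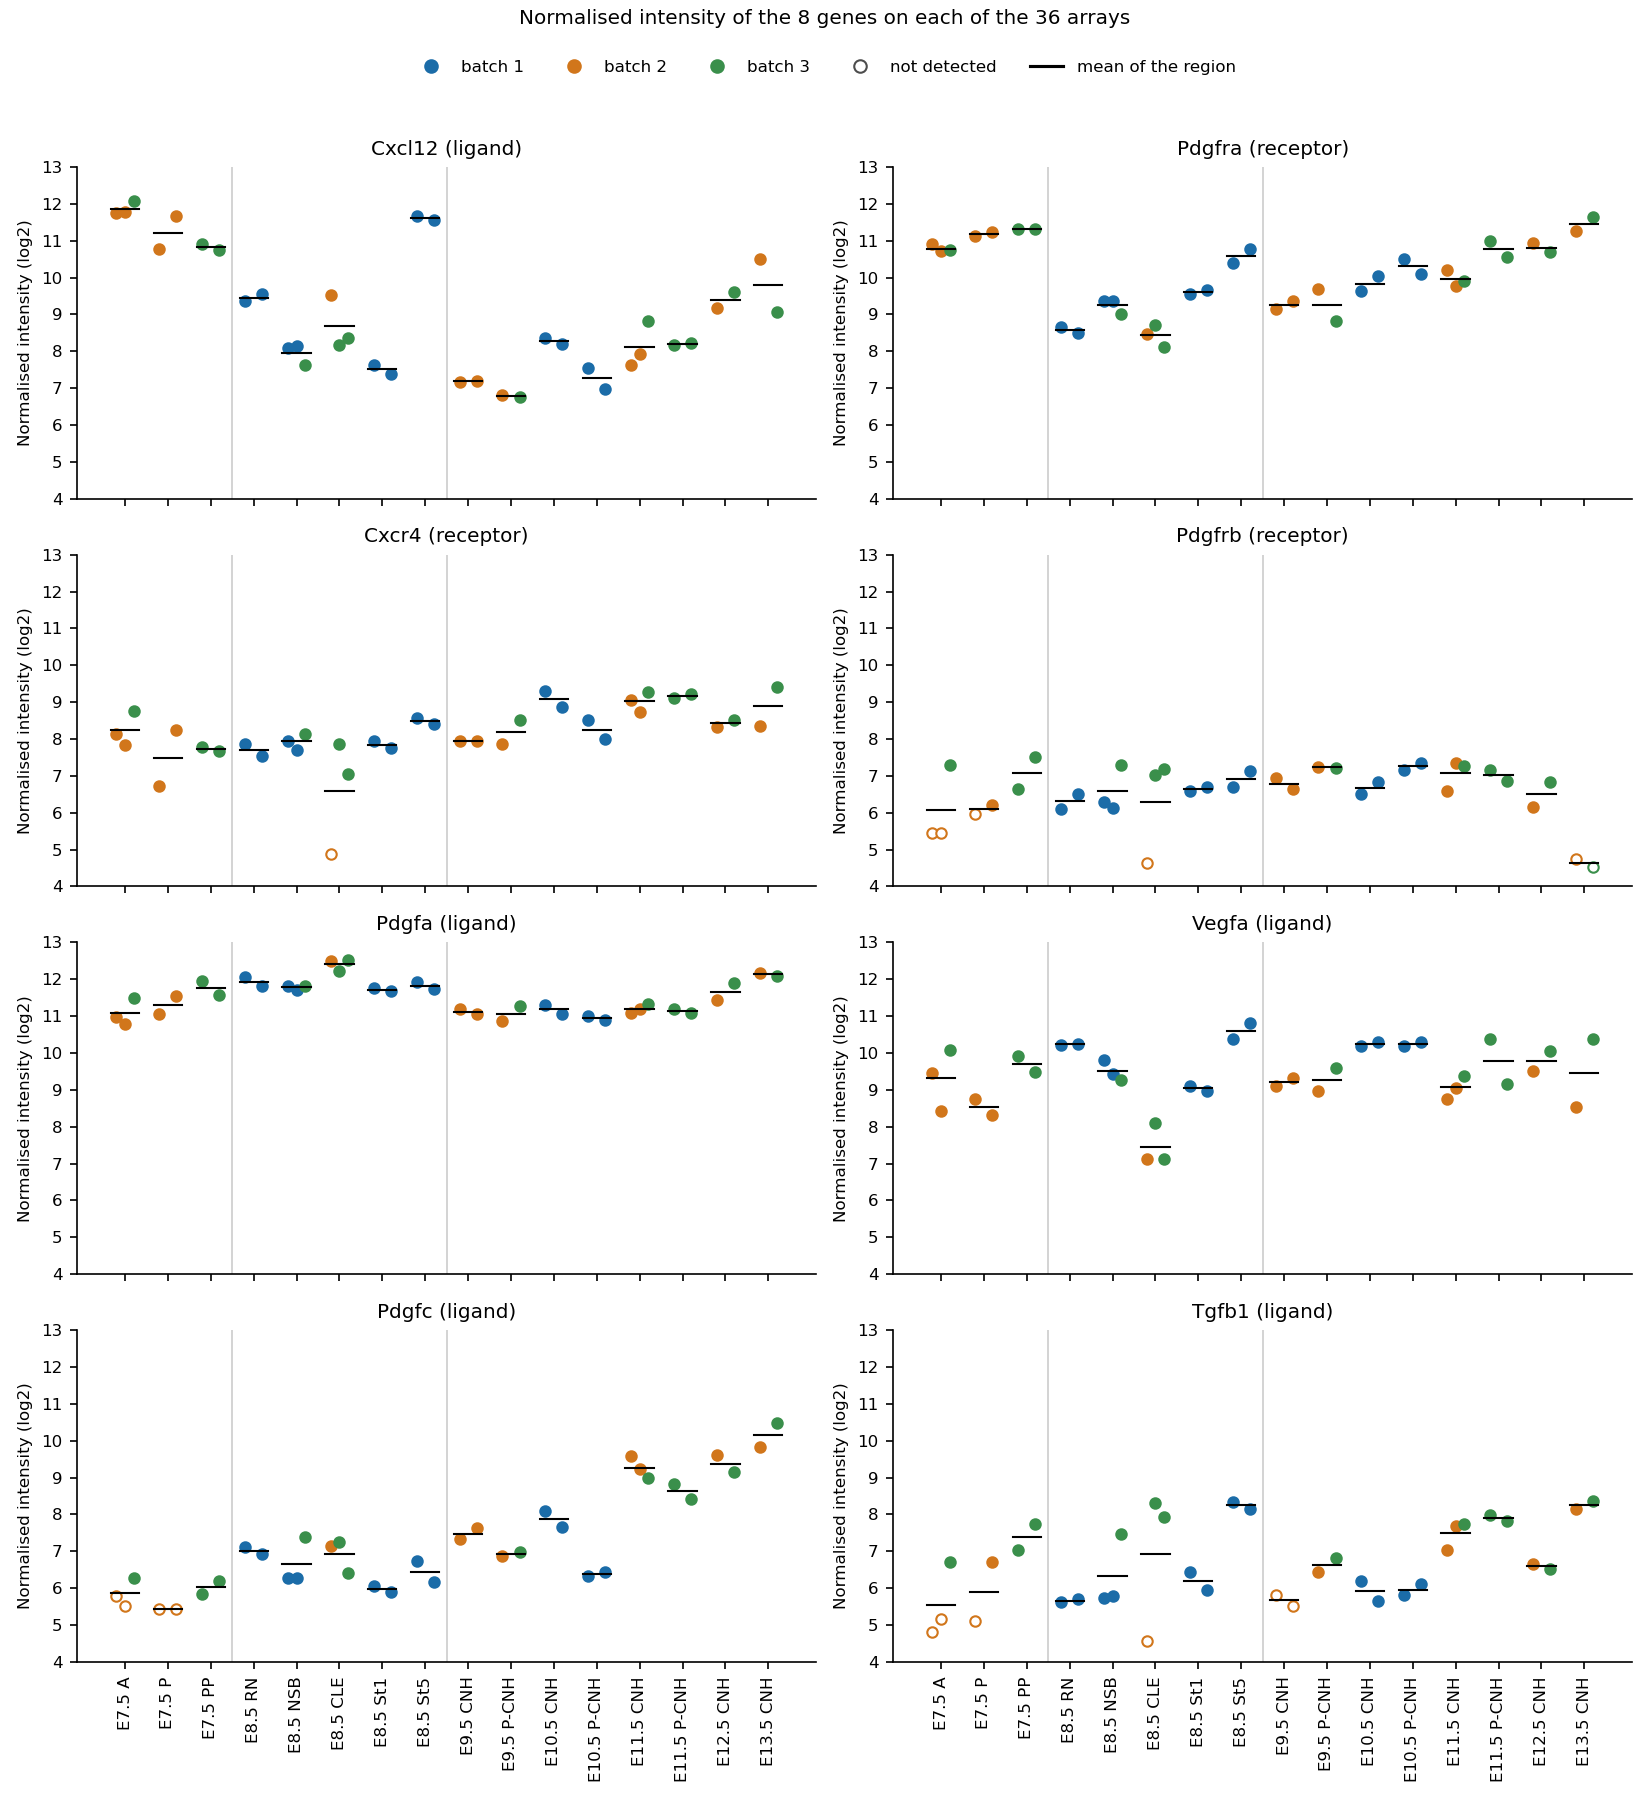
Normalised log2 intensity of each of the 8 members on each of the 36 arrays, by region. Each point is 1 array, its colour the batch, and open points mark arrays on which the probe was not detected. Cxcl12 stands high in E8.5 St5 and at E7.5. Tgfb1 stands high in E8.5 St5, and as high in E13.5 CNH and on some E8.5 CLE arrays.

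The ligand Cxcl12 measured 11.66 and 11.56 in the St5 pools, 7.64 and 7.39 in St1, 8.08, 8.15 and 7.62 in NSB, 9.36 and 9.55 in RN, and 9.52, 8.16 and 8.36 in CLE. Both St5 pools lay above every other E8.5 pool, and both St1 pools lay at the low end beside NSB. Against the mean of the other 4 regions Cxcl12 was 8.32-fold higher in St5 (log2 difference 3.06, 95% interval 2.27 to 3.84, adjusted p 7.2e-06). Against St1 alone, the other end of the streak, it was 17.1-fold higher (4.09, interval 3.20 to 4.98, adjusted p 1.6e-06). The other tested probes of the gene, detected on 8 and 7 arrays and on no E8.5 array outside St5, were at least 2.22-fold and 1.98-fold higher in St5 (adjusted p 0.0032 and 0.0019). On the probe detected on 8 arrays an undetected CLE pool, at 6.92, lay above the lower St5 pool, at 6.88. Among the arrays of batch 1 the brightest probe gave 3.25 in St5 (without CLE, against the mean of 3 regions). Its difference of 4.09 from St1 came from batch 1 pools alone in either fit. Limiting the fit to batch 1 could therefore not change it. Fewer cells of a type and less RNA per cell cannot be told apart in pooled tissue, here or for any other value.

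Vegfa, the ligand of vessel growth, measured 10.37 and 10.81 in St5, 9.12 and 8.97 in St1, 9.81, 9.42 and 9.27 in NSB, 10.23 and 10.25 in RN, and 7.12, 8.11 and 7.12 in CLE. The St5 pools were above the rest but close to RN, and the 3 CLE pools were below the rest. The level in St5 was 2.54-fold above the mean of the other 4 regions (1.35, interval 0.63 to 2.07, adjusted p 0.019), and that mean takes in the low CLE value. Within batch 1, where CLE is absent, the difference was 0.96 (adjusted p 0.00026). It missed the threshold without St5 replicate 1 (1.57, adjusted p 0.065), St5 replicate 2 (1.12, adjusted p 0.36) or NSB replicate 2 (1.25, adjusted p 0.072). The next probe of the gene, detected on 35 arrays, gave 1.44 in St5 (adjusted p 0.00023).

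Tgfb1, a ligand of the TGF-beta family, measured 8.35 and 8.15 in St5, 6.44 and 5.95 in St1, 5.74, 5.77 and 7.47 in NSB, and 5.62 and 5.70 in RN. In CLE it measured 4.55, below detection, on replicate 1 and 8.30 and 7.92 on replicates 2 and 3. St5 was clear of every other E8.5 pool of batch 1, but overlapped CLE, whose pools spanned almost the whole range. The fitted difference in St5 was 2.45 (5.46-fold, interval 1.30 to 3.60, adjusted p 0.0065), and 2.38 within batch 1 (adjusted p 8.9e-07). With 1 St5 pool left out it missed the threshold (2.35, adjusted p 0.11 without replicate 1, and 2.54, adjusted p 0.071 without replicate 2), as it did with no batch term (1.97, adjusted p 0.072). Against St1 the difference of 2.06 was not called (adjusted p 0.091). It was called without CLE replicate 1 (adjusted p 0.0054), the array with the lowest signal over background, and within batch 1 (adjusted p 2.8e-05). It was also called with a larger offset (1.30, adjusted p 0.018) and with cyclic loess (2.02, adjusted p 0.0015).

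Of the receptors, Pdgfra measured 10.40 and 10.77 in St5, 9.55 and 9.68 in St1, 9.36, 9.37 and 9.01 in NSB, 8.67 and 8.51 in RN, and 8.48, 8.70 and 8.12 in CLE. The pools stepped down from St5 through St1 and NSB to RN and CLE, which overlapped. In St5 it was 2.84-fold above the mean of the other 4 (1.51, interval 1.03 to 1.98, adjusted p 0.00011; 1.39 within batch 1). In RN it was 1.98-fold lower (-0.99, interval -1.46 to -0.51, adjusted p 0.017; -1.27 within batch 1). The lower level in RN was not called without RN replicate 1 (-1.07, adjusted p 0.13) or replicate 2 (-0.91, adjusted p 0.31), nor with batch means removed before the fit (-0.73, adjusted p 0.094). The gene's next probe was detected on 1 array and was not called (0.20 in St5).

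Cxcr4, the receptor of Cxcl12, measured 8.57 and 8.40 in St5, 7.94 and 7.75 in St1, 7.95, 7.70 and 8.14 in NSB, and 7.86 and 7.54 in RN. In CLE it measured 4.87 (not detected), 7.87 and 7.05. St5 lay above every other E8.5 pool, by 0.99 against the mean of the other 4 regions, which was not called (adjusted p 0.25). Among the arrays of batch 1 alone the difference was 0.69 and was called (adjusted p 0.0093). Pdgfrb, a receptor known from vessel mural cells, differed in St5 by 0.75 (adjusted p 0.61), and the ligands Pdgfa and Pdgfc by -0.15 and 0.16.

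In St5, 4 of the 8 members were called (Cxcl12, Pdgfra, Vegfa and Tgfb1, all higher), against 5.47% of all tested probes, and the median difference of the members was 1.17 against -0.00 over all probes. The study had listed each of them as raised in the posterior streak from these same samples, so the count is not independent evidence. Against St1, 3 members were called (Cxcl12, Pdgfra and Vegfa), against 3.27% of all probes. There Pdgfra (0.97, adjusted p 0.039) was lost when any of 11 arrays was left out (0.78 to 1.16), with no batch term (adjusted p 0.065), with batch means removed first (adjusted p 0.065) and with a replicate block (adjusted p 0.053), and Vegfa (1.54, adjusted p 0.026) when any of the 4 arrays of St5 and St1 was (1.32 to 1.77), with no batch term (adjusted p 0.16) or with no filter on dim probes (adjusted p 0.053). RN had 1 member called (Pdgfra, lower) against 2.25% of all probes, and Pdgfc (0.88, adjusted p 0.13) and Vegfa (0.90, adjusted p 0.39) were not called, though Pdgfc was within batch 1 (0.78, adjusted p 0.006).

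NSB had 1 member called against 2.18% of all probes, and St1 had 1 against 0.451%. In both it was Cxcl12, lower by -1.31 in NSB (adjusted p 0.01) and -2.06 in St1 (adjusted p 0.0083), each against a mean that holds the high St5 value. Leaving out a pool of the region itself undid both, with -1.29 and -1.34 for NSB without replicates 1 and 2 (adjusted p 0.14 and 0.12) and -2.18 and -1.94 for St1 (adjusted p 0.12 and 0.34). Within batch 1 they were -1.41 and -2.21 and were called, but the next probe, not detected in these regions, was not. In CLE limma called 0 members, against 1.01% of all probes, while 4 had an unadjusted p under 0.05. Of these Vegfa (-1.80, adjusted p 0.14), Cxcr4 (-1.35) and Pdgfra (-0.79) were lower and Pdgfa was higher (0.64, adjusted p 0.73). Without CLE replicate 1, where it was not detected, Cxcr4 was -0.82. Without the batch term, or with batch means removed first, all 4 were called in CLE, Vegfa (-2.40 and -1.65), Cxcr4 (-1.39 and -1.42), Pdgfra (-1.07 and -1.50) and Pdgfa (0.60 under both). With the BeadChip as a random block Vegfa (-2.22) and Pdgfra (-0.94) were, and CLE and batch can be separated only through NSB replicate 3.

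**Figure D2:**
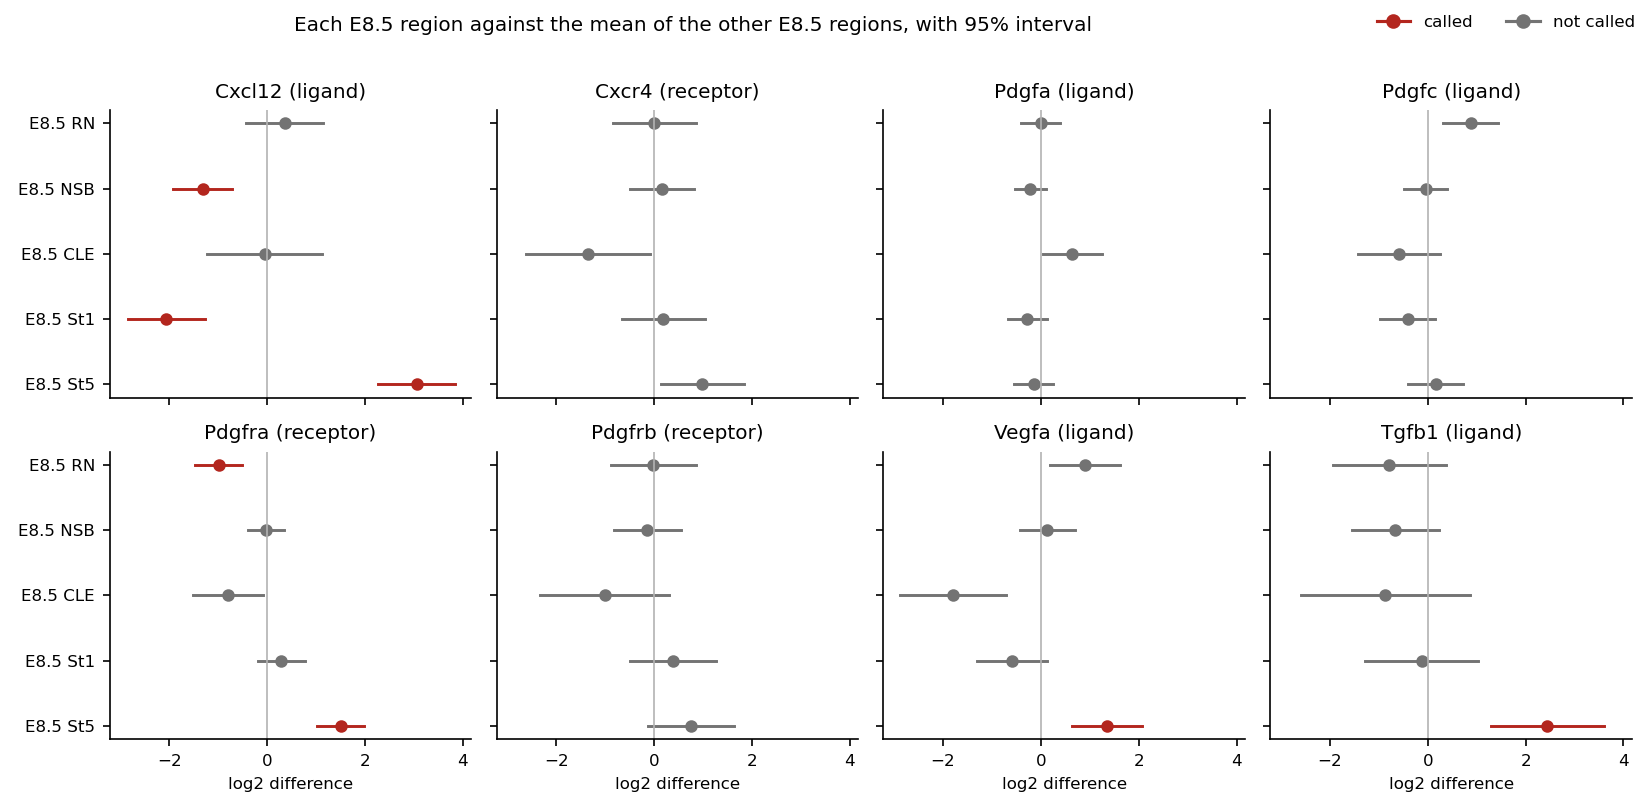
Log2 difference of each member between an E8.5 region and the mean of the 4 remaining ones, with its 95% interval. Red points were called and grey ones were not; Cxcl12, Pdgfra, Vegfa and Tgfb1 lie to the right of 0 in St5.

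Since these 4 genes were high together in St5, their promoters are shown, from a set that held 7 of the 8 members (not Pdgfrb). Each is the 300 bases from 250 before to 50 after the transcript start, as RefSeq gives it on the build GRCm38.p6. They lie at chr6:117168285-117168584 (+ strand, Cxcl12), chr5:75152001-75152300 (+, Pdgfra), chr17:46032328-46032627 (-, Vegfa, the first listed of 2 starts) and chr7:25686752-25687051 (+, Tgfb1). Capitals mark matches on either strand to the GC box GGGCGG, the hypoxia response core ACGTG, the TATA box TATAAA or the GATA motif AGATAA. The sequences read 5′ to 3′.
Cxcl12: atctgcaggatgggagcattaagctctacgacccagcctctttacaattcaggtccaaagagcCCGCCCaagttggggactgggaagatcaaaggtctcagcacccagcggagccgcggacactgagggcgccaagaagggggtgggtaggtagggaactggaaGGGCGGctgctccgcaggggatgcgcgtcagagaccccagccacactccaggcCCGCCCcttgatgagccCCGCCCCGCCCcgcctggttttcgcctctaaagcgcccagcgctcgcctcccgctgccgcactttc
Pdgfra: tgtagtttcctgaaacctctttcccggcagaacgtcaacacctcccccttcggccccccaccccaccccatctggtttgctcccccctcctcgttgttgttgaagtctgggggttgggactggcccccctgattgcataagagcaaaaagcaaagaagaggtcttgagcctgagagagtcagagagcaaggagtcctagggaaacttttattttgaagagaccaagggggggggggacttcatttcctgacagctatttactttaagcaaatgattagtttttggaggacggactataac
Vegfa: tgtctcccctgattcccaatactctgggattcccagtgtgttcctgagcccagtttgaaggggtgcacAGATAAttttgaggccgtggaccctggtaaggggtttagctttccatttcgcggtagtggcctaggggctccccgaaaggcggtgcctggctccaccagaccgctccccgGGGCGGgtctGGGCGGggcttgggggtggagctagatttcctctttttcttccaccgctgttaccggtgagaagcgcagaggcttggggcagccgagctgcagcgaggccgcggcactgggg
Tgfb1: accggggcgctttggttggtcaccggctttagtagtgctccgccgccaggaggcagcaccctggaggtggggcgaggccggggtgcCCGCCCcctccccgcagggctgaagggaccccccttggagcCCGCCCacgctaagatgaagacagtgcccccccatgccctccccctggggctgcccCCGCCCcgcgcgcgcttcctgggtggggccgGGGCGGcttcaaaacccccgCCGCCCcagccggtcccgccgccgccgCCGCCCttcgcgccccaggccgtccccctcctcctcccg

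GC boxes numbered 5 in the Cxcl12 promoter, 2 in Vegfa, 6 in Tgfb1 and 0 in Pdgfra, and Vegfa held 1 GATA motif. Among 32851 promoters of this length, 35.66% held the GC box, 19.62% the hypoxia response core, 13.62% the TATA box and 11.18% the GATA motif. G and C made up 64.67% of the bases in Cxcl12, 51% in Pdgfra, 62% in Vegfa and 77% in Tgfb1, against a median of 52.67% over all promoters. No feature was searched for that all 4 share and other promoters lack.

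Other genes of these pathways came from a list of 46, of which 37 were tested and 29 were not members. Of these 29, 9 were higher and 1 lower in St5, with a median difference of 0.55, or 0.22 with undetected genes at their lower bounds, against -0.00 over all probes. Those with the largest fitted differences were Tgfb2, Nrp1, Eng, Smad6 and Flt1. Tgfb2 is a ligand (adjusted p 5.0e-05, detected on 8 of the 10 other arrays), and Nrp1 a receptor that binds Vegfa (5.64-fold, adjusted p 5.7e-06). Eng is a co-receptor for TGF-beta, and Smad6 (adjusted p 0.0029) an inhibitor within cells, detected on 2 of the 10 other arrays. Flt1 (adjusted p 0.001) is another receptor of Vegfa and was not detected in CLE. Eng was detected on no E8.5 array outside St5, and its adjusted p was 1.2e-05 for a rise of at least 2.20-fold. Against St1, 8 of the 29 were higher and 1 lower. In RN, 1 was higher (Ltbp3, which holds latent TGF-beta, 1.84, adjusted p 0.018), and in CLE 1 was lower (Nrp1, -1.89, adjusted p 0.043). In NSB and in St1 limma called 0 of the 29, with 6 and 3 at an unadjusted p under 0.05. Ackr3, a second receptor of Cxcl12 listed as Cxcr7, and Kdr, the main receptor of Vegfa, were detected on no array, and neither were Pdgfd, Pgf, Flt4, Acvrl1, Smad7 and Epas1.

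Markers of other tissues differed in St5 as well. All 5 lateral mesoderm genes were higher, Bmp4 by 3.38. Tbx4 and Isl1, detected on 6 and 1 of the 10 other E8.5 arrays, are given without a size, and Foxf1 and Hand1, not detected elsewhere at E8.5, were at least 10.9-fold and 7.37-fold higher. Their summed level on the log2 scale was 13.14 and 13.42 on the St5 arrays, with the most signal from the Tbx4 probe, and 8.45 to 10.71 on the other E8.5 arrays. Of 8 endothelial genes 6 were tested and 4 were higher (Etv2 by 2.42, Esam by 2.11, Cdh5, detected only in St5 at E8.5, at least 2.94-fold, and Tek, detected on 1 of the other arrays), while the defining markers Kdr and Tie1 were detected on no array. Their summed level was 12.19 and 12.29 on the St5 arrays and 9.77 to 10.81 on the others, with the most signal from the Etv2 probe. Of 9 endoderm genes 2 were higher (Ctsh and Sox17, neither detected in CLE), and their summed level was 11.48 and 11.51 in St5 (most signal from the Ttr probe), 11.65 and 11.21 in RN, 11.89 and 10.56 in St1, 10.36 to 11.03 in NSB and 8.46 to 9.36 in CLE. The part of these tissues in the St5 levels of the members was not tested. For surface ectoderm limma called 0 of 5 (1 at an unadjusted p under 0.05) and for blood 0 of 6 (0 at an unadjusted p under 0.05), and surface ectoderm summed to 9.56 and 9.05 in St5 against 8.43 to 10.08 on the other E8.5 arrays.

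**Figure D3:**
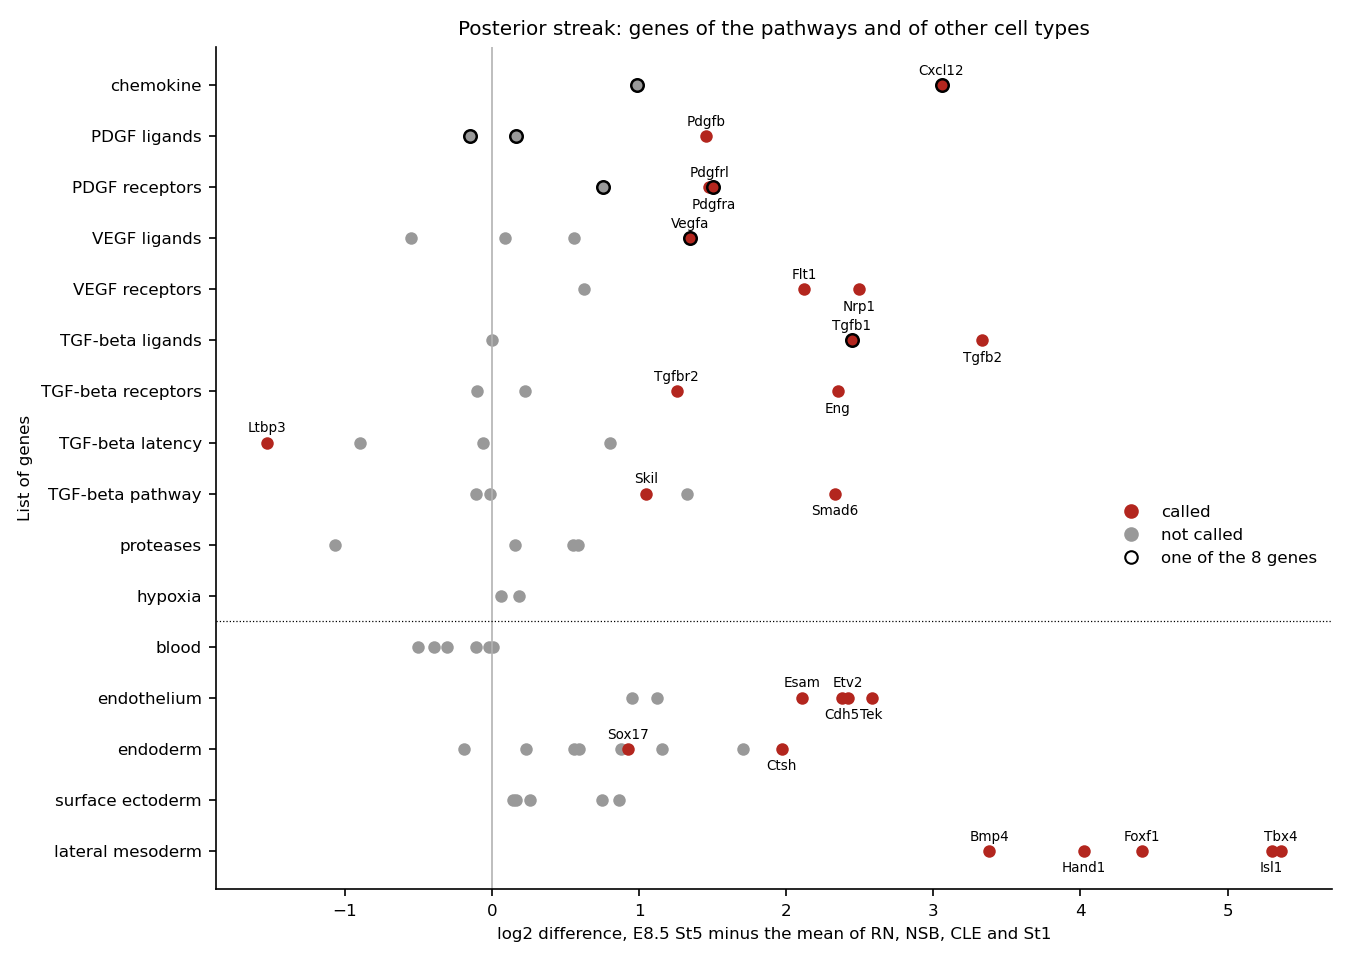
Log2 difference in E8.5 St5 against the mean of the remaining 4 E8.5 regions for each tested gene of the pathway list (above the dotted line) and of marker lists (below it). Red points were called, and ringed ones are members; all 5 lateral mesoderm genes lie to the right. Probes that were not detected enter with their background values.

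Ligand and receptor regions were then set side by side over the fitted means of the regions, as a description. The points share arrays and batches, and differences between a ligand and its receptor were not tested. Cxcl12 and Cxcr4 were both highest in St5 at E8.5, but Cxcl12 was lowest in St1 and Cxcr4 in CLE, and over the 16 regions their correlation was -0.06 (Pearson r; Spearman rho -0.04). Pdgfa was highest in CLE, at 12.49, 12.24 and 12.53, where its receptor Pdgfra was low, and the correlation was -0.15 (rho -0.16). Among the E8.5 regions Pdgfc had its highest fitted mean in RN, where fitted Pdgfra was lowest, and over the 16 regions r was 0.04 (rho 0.08). Its RN pools measured 7.11 and 6.93, its CLE pools 7.14, 7.25 and 6.42 and NSB replicate 3 7.38, so that place rests on the adjustment for batch. At E8.5 the highest fitted Pdgfra was in St5, and those of Pdgfa and Pdgfc were in other regions.

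Pdgfc and Pdgfrb gave r -0.23 (rho 0.03). Among the E8.5 regions Vegfa was highest in St5 and lowest in CLE, as was its co-receptor Nrp1, and Flt1 was highest in St5. The fitted mean of Flt1 was lowest in RN, but Flt1 was not detected in CLE. The order of RN and CLE for Flt1 therefore rests on background values. Over the 16 regions Vegfa gave r 0.47 with Nrp1 (rho 0.40) and 0.16 with Flt1 (rho 0.03). Tgfb1 gave r 0.12 with Tgfbr1 (rho 0.28) and 0.12 with Tgfbr2 (rho 0.06). Over the 8 tail bud regions alone the correlations were 0.52 for Cxcl12 with Cxcr4, 0.66 for Pdgfa and 0.75 for Pdgfc with Pdgfra, -0.71 for Pdgfc with Pdgfrb, 0.22 for Vegfa with Nrp1 and 0.23 with Flt1, and 0.26 for Tgfb1 with Tgfbr1 and 0.52 with Tgfbr2. Over the 5 E8.5 regions they were, in the same order, 0.37, -0.54, -0.12, 0.36, 0.89, 0.46, -0.18 and 0.77. Without E13.5 CNH, where Pdgfrb was detected on neither array, those of the tail bud were 0.44, 0.30, 0.60, -0.54, 0.46, 0.31, 0.09 and 0.30. Over the 15 regions left they were, in the same order, -0.10, -0.37, -0.20, 0.28, 0.47, 0.15, -0.003 and -0.04.

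**Figure D4:**
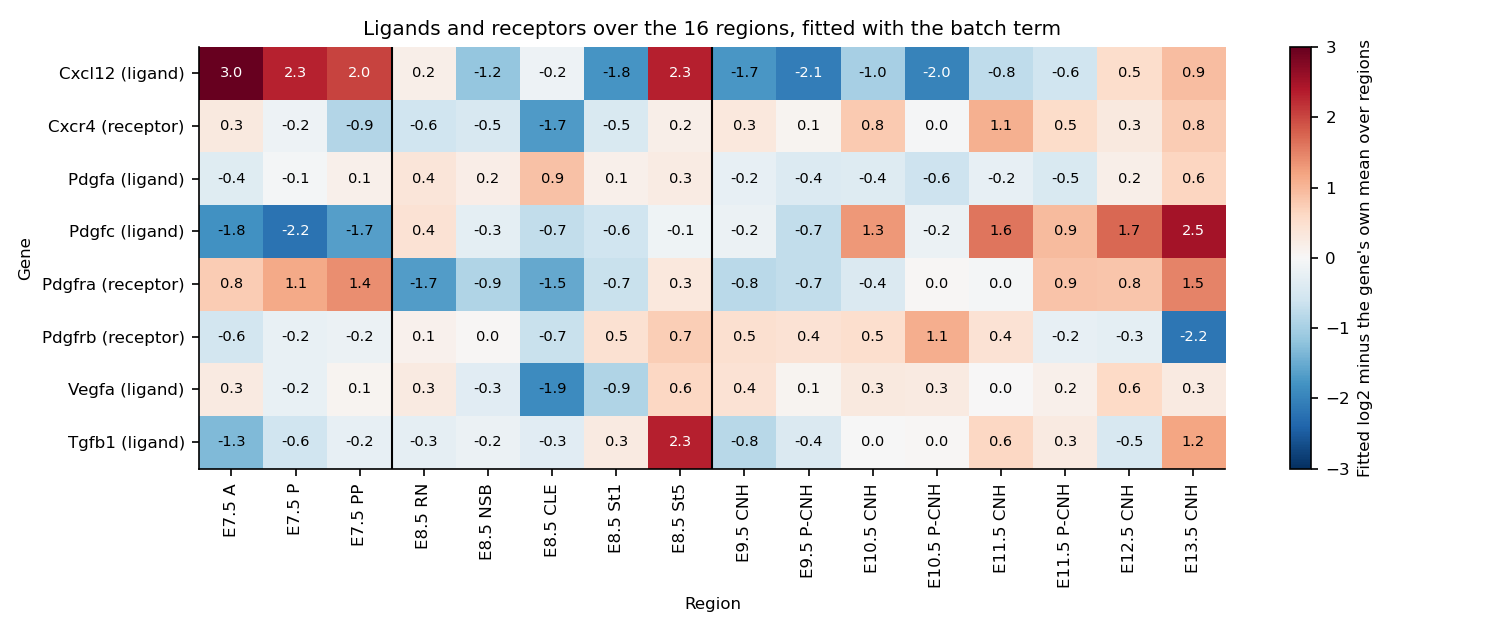
Fitted mean of each member in each of the 16 regions, as its log2 difference from that member's own mean over the regions. Among the E8.5 regions Cxcl12, Vegfa, Tgfb1 and Pdgfra are highest in St5, while Pdgfa is highest in CLE.

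In the tail bud, Pdgfc was the 1 member called between CNH and the tissue behind it. At E10.5 it measured 8.11 and 7.67 in CNH and 6.34 and 6.44 in P-CNH. At E9.5 it measured 7.33 and 7.64 in CNH and 6.88 and 6.97 in P-CNH, and at E11.5 9.57, 9.24 and 9.00 against 8.83 and 8.42. At each of the 3 stages every CNH pool lay above every P-CNH pool. The mean difference over the stages was 0.91 (1.88-fold, interval 0.52 to 1.29, adjusted p 0.016), and 1 member of 8 stood against 0.599% of all probes called. It was not called without E10.5 CNH replicate 1, E10.5 P-CNH replicate 1, E9.5 CNH replicate 2 or E9.5 P-CNH replicate 1 (0.83 to 0.89, adjusted p 0.059 to 0.10), nor over E9.5 and E11.5 alone (0.61, adjusted p 1.0). It was called without E9.5 (1.07) and without E11.5 (1.06).

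At E10.5 alone 1 member was called, Pdgfc (2.82-fold, log2 interval 0.86 to 2.14, adjusted p 0.028), against 0.318% of all probes. That call was lost when any of its 4 arrays was left out (1.28 to 1.72), with no background correction (0.95, adjusted p 0.071), with a larger offset (0.94, adjusted p 0.053) and with no batch term (adjusted p 0.13), though both regions were in batch 1. Cxcl12 also had an unadjusted p under 0.05 at E10.5, higher in CNH (1.01), but was not called. At E9.5 limma called 0 members, against 0.170% of all probes, with 0 at an unadjusted p under 0.05. At E11.5 it called 0, against 0.161%, with 2 at an unadjusted p under 0.05, Pdgfc higher (0.66) and Pdgfra lower in CNH (-0.91, adjusted p 0.31). Pdgfra was called there without E11.5 P-CNH replicate 2 (-1.13, adjusted p 0.043), when 915 probes were called in place of 35, and with the BeadChip as a block (-1.10 as a fixed block). Whether CNH and P-CNH differed unequally between the stages was tested by an interaction, which gave 0 members and 6 of 21712 probes, the lowest unadjusted p of a member being 0.078 for Pdgfra.

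Of the 29 other pathway genes 1 was higher in CNH over the 3 stages, Pdgfrl (adjusted p 0.0013, detected on 4 of 6 P-CNH arrays). It is a gene named for its likeness to PDGF receptors. It was also the 1 called at E10.5 (1.98, adjusted p 0.034), and limma called 0 at E9.5 and 0 at E11.5, with 3 and 5 at an unadjusted p under 0.05. Node and notochord markers moved with Pdgfc, with Shh and Noto, each detected on 1 of 6 P-CNH arrays, and Foxa2, not detected in P-CNH (at least 2.75-fold), higher in CNH. From E9.5 to E11.5 their summed level ran from 10.87 to 11.95 on CNH arrays and from 7.93 to 8.92 on P-CNH arrays. The Shh probe gave the most signal in CNH. For endothelial genes limma called 0 of 6 over the stages (2 at an unadjusted p under 0.05) and 1 at E10.5 (Emcn, 2.30, adjusted p 0.015), and endoderm 1 of 9 in each (Sox17). The part of these tissues in the Pdgfc level was not tested.

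E10.5 CNH was compared with E8.5 NSB, the border region whose descendants the hinge is thought to hold. Pdgfc, at 8.11 and 7.67 against 6.28, 6.28 and 7.38, was 3.04-fold higher in the fit (1.61, interval 0.96 to 2.25, adjusted p 0.0011), and no pools overlapped. NSB replicate 3, at 7.38, only fixed the batch term, so fitted sizes here compare E10.5 CNH with NSB replicates 1 and 2. The measured means of Pdgfc were 7.89 in E10.5 CNH and 6.65 over all NSB pools. Pdgfc was the 1 member called, against 7.14% of all probes. Cxcr4, at 9.29 and 8.87 against 7.95, 7.70 and 8.14, differed by 1.25 and was not called (adjusted p 0.13). It was called without CLE replicate 1 (adjusted p 0.026), within batch 1 (adjusted p 0.0007), with cyclic loess (1.18), with no background correction (1.00) and with a larger offset (1.01). Pdgfa differed by -0.59 and was not called (adjusted p 0.14), though it was within batch 1 (adjusted p 0.0063). Of the 29 other pathway genes 7 were higher and 3 lower, with a median of 0.62 (0.43 at lower bounds) against -0.006 over all probes. Plat, a protease that can cleave Pdgfc, was lower (-2.18, adjusted p 0.00025), as was Dpp4, which cleaves Cxcl12 (not detected in E10.5 CNH, at least 3.35-fold, adjusted p 0.00066), and the ligands Tgfb2 (1.98) and Vegfc (1.73) and the matrix gene Tgfbi (2.01) were higher. Blood markers rose for 3 of 6 genes and endothelial ones for 2 (Emcn and Cdh5, not detected in NSB, at least 6.84-fold and 2.19-fold), and endoderm markers fell for 3 of 9, and their part in these differences was not tested.

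Along the CNH from E9.5 to E13.5, Cxcl12 measured 7.17 and 7.20, then 8.36 and 8.20, then 7.63, 7.93 and 8.82, then 9.17 and 9.62, and at E13.5 10.52 and 9.07. All pools of the last 2 stages exceeded all pools of the first 3, and the E13.5 pools were far apart. The fitted slope was 0.69 per day (1.61-fold, interval 0.46 to 0.92, adjusted p 0.00015). Without E13.5 CNH replicate 1 it was 0.53, under the fold threshold, and without the E9.5 pools it was 0.71 with an adjusted p of 0.14. It was called without any single other stage (0.66 to 0.70) and within batches 2 and 3 (0.70, adjusted p 0.0022), but fell under the fold threshold with no background correction (0.56), a larger offset (0.56) or the BeadChip as a fixed block (0.58). The next probe of Cxcl12 gave 0.28 (adjusted p 0.21).

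Pdgfrb measured 6.94 and 6.63 at E9.5, 6.51 and 6.85 at E10.5, 6.58, 7.35 and 7.26 at E11.5, 6.15 and 6.84 at E12.5, and 4.74 and 4.52, both not detected, at E13.5. The first 4 stages overlapped and the last lay below them all. The fit called a downward slope (adjusted p 0.0019), whose size is not given, since the E13.5 values are background, and without the E13.5 pools it was -0.25 and not called (adjusted p 0.45). The call was also lost without the E9.5 pools (adjusted p 0.074), E9.5 CNH replicate 1 or E13.5 CNH replicate 2, and with no background correction, a larger offset, no batch term, batch means removed first, a replicate block or cyclic loess. E13.5 CNH replicate 2 had the fewest detected probes of all arrays.

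Over the slope 2 members were called, Cxcl12 upward and Pdgfrb downward, against 2.12% of all probes. Pdgfra (0.58, adjusted p 2.6e-06) and Pdgfc (0.57, adjusted p 2.7e-05) met the threshold on p but lay just under 1.5-fold per day and were not called. Pdgfa (0.23, adjusted p 0.0075) was not called, and its adjusted p was 0.17 without the E9.5 pools, 0.35 without the E13.5 pools (0.14) and 0.056 within batches 2 and 3. Pdgfra ran from 9.15 and 9.37 at E9.5 to 11.28 and 11.65 at E13.5, and Pdgfc from 7.33 and 7.64 to 9.83 and 10.48. Pdgfra was called without the E9.5 pools (0.68) and with cyclic loess (0.62), and when any of 5 single arrays was left out. Pdgfc was called without the E10.5, E12.5 or E13.5 pools (0.60 to 0.64), with no batch term (0.68) and when any of 4 single arrays was left out, but had an adjusted p of 0.42 without the E9.5 pools (0.36). Of the 29 other pathway genes 3 rose, the latency genes Ltbp3, not detected in E9.5 CNH, and Ltbp1 (0.69) and the receptor Tgfbr2 (0.64). Surface ectoderm markers rose with stage for 3 of 5 genes (Cldn4 by 0.80, and Krt14 and Trp63, not detected in CNH before E11.5). Their summed level was 8.21 and 8.32 on the E9.5 CNH arrays and 12.04 and 12.06 at E13.5, where the Krt14 probe gave the most signal. Of the caudal epiblast and tail bud genes 2 of 5 fell (Nkx1-2 -0.62 and Fgf8 -0.59), and their summed level was 14.30 and 13.08 at E13.5 and 14.74 to 15.19 on the earlier CNH arrays, with the most signal from the T probe. For lateral mesoderm limma called 0 of 5 (1 at an unadjusted p under 0.05), but the summed level, with the most signal from the Bmp4 probe, was 11.82 and 10.73 at E13.5 and 8.34 to 9.44 on the earlier CNH arrays. Blood markers gave 1 up and 1 down of 6, paraxial mesoderm gave 1 up of 3, and endothelium gave 0 of 6 called with 6 at an unadjusted p under 0.05. The part of these tissues in the slopes was not tested.

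**Figure D5:**
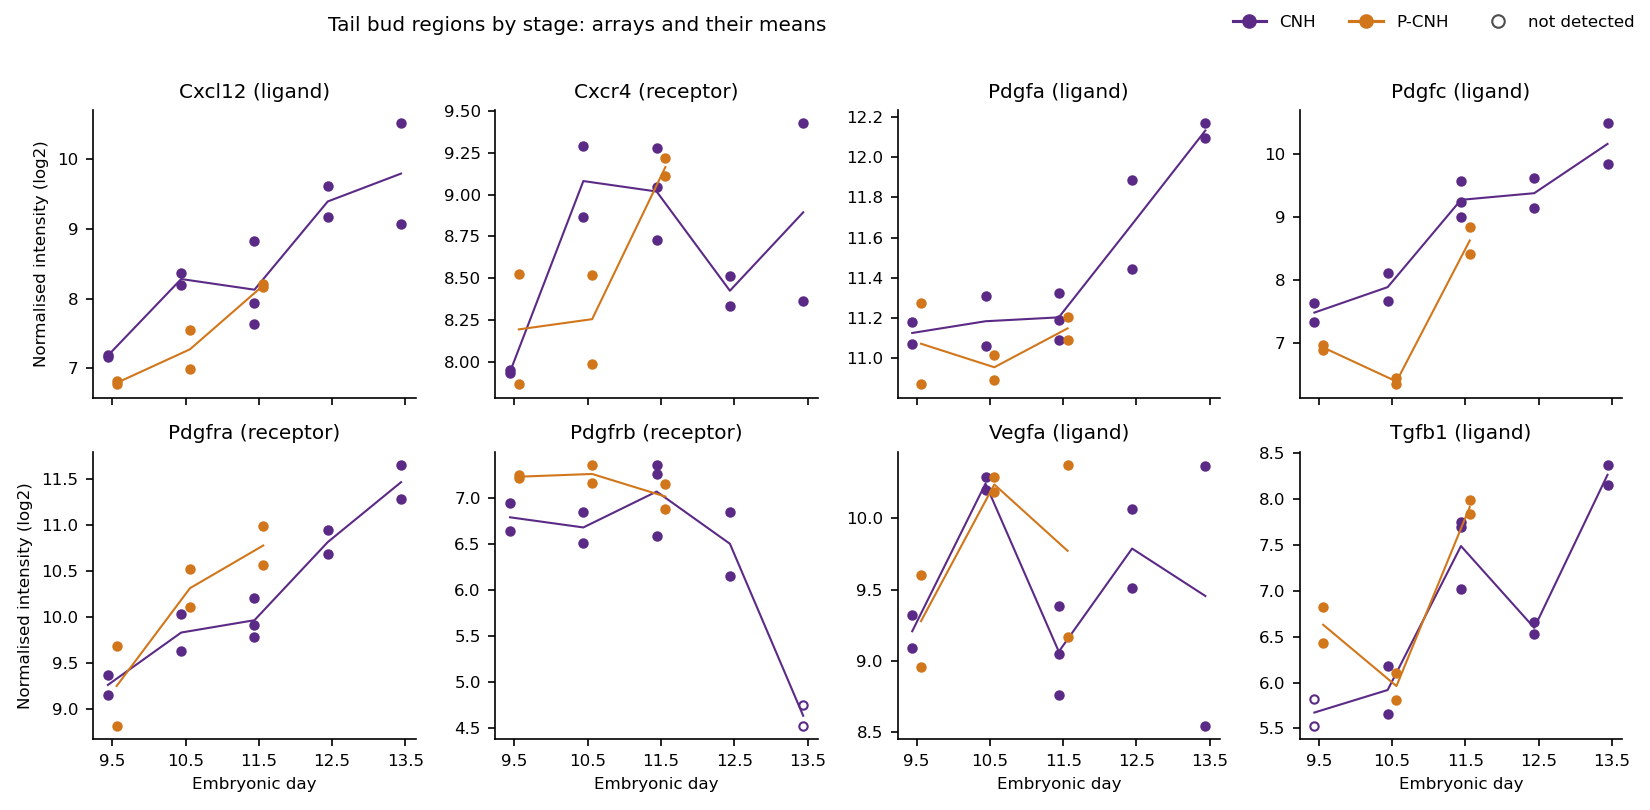
Normalised log2 intensity of the members in the tail bud by embryonic day, in CNH and P-CNH, with lines through the means. Each point is 1 array, offset slightly from its day, and the vertical scales differ between panels; Pdgfc lies higher in CNH than in P-CNH at all 3 shared stages.

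At E7.5, limma called 0 members between PP and P, against 0.792% of all probes, and 0 between P and A, against 2.73%. In each, 0 had an unadjusted p under 0.05. Both PP pools were in batch 3 and both P pools in batch 2, so their comparison rests on the adjustment for batch. The PP pools lay above the P pools for Vegfa, Tgfb1 and Pdgfrb (means 9.70 and 8.54, 7.39 and 5.90, 7.08 and 6.09). The fitted differences of these genes were 0.32, 0.35 and 0.05. Tgfb1 and Pdgfrb were each detected on 1 of 2 P arrays. Cxcl12 was high throughout this stage, at 11.76, 11.78 and 12.07 in A, 10.78 and 11.66 in P and 10.91 and 10.75 in PP. Of the 29 other pathway genes, limma called 0 between PP and P (6 at an unadjusted p under 0.05) and 2 between P and A. Both were lower in P, Ltbp1 (adjusted p 0.014, detected on 1 of 2 P arrays) and Tgfbr2 (-1.05, adjusted p 0.042).

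Ordered over all 16 regions by fitted mean, Cxcl12 ran from E7.5 A through E8.5 St5, E7.5 P and E7.5 PP to E13.5 and E12.5 CNH, then RN, CLE, E11.5 P-CNH, E11.5 and E10.5 CNH, NSB, E9.5 CNH, St1, E10.5 P-CNH and E9.5 P-CNH. The ends were 33.3-fold apart, and of the 15 pairs of neighbours only PP and E13.5 CNH had an interval of the difference that excluded 0. Vegfa ran from St5 through E12.5, E9.5 and E10.5 CNH to E10.5 P-CNH, RN, A, E13.5 CNH, E11.5 P-CNH, PP, E9.5 P-CNH, E11.5 CNH, P, NSB, St1 and CLE (5.73-fold between the ends). Tgfb1 ran from St5 through E13.5 and E11.5 CNH to E11.5 P-CNH, St1, E10.5 P-CNH, E10.5 CNH, NSB, PP, RN and CLE. It ended with E9.5 P-CNH, E12.5 CNH, P, E9.5 CNH and A. Tgfb1 was detected on 1 of 2 P arrays, on no E9.5 CNH array and on 1 of 3 A arrays. The order of P, E9.5 CNH and A therefore rests on background values. The Tgfb1 pools of E13.5 CNH measured 8.16 and 8.37, as high as those of St5, so the first place of St5 rests on the adjustment for batch. For Vegfa and Tgfb1 no pair of neighbours differed beyond its interval. For every member, the places of batch 1 regions among regions of other batches rest on that adjustment, through NSB replicate 3.

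Pdgfa ran from CLE through E13.5 CNH, RN, St5, NSB, E12.5 CNH, St1, PP, P, E9.5 and E11.5 CNH, A, E10.5 CNH, E9.5 P-CNH and E11.5 P-CNH to E10.5 P-CNH (2.83-fold, no neighbours apart). Pdgfc fell from E13.5 CNH through E12.5, E11.5 and E10.5 CNH, E11.5 P-CNH, RN, St5, E9.5 CNH, E10.5 P-CNH, NSB, St1, CLE and E9.5 P-CNH to PP, A and P. It was detected on both PP arrays, on 1 of 3 A arrays and on no P array. Its neighbours differed beyond the interval between E13.5 and E12.5 CNH and between E9.5 P-CNH and PP. The measured means of Pdgfc put E10.5 CNH (7.89) under E11.5 P-CNH (8.63), and RN (7.02) and St5 (6.44) under E9.5 CNH (7.48). Those places in the order therefore rest on the adjustment for batch.

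Among the receptors, Pdgfra ran from E13.5 CNH through PP, P, E11.5 P-CNH, E12.5 CNH, A, St5, E10.5 P-CNH, E11.5 and E10.5 CNH, St1, E9.5 P-CNH, E9.5 CNH, NSB and CLE to RN (8.95-fold). Cxcr4 ran from E11.5, E10.5 and E13.5 CNH through E11.5 P-CNH, E9.5 and E12.5 CNH, A, St5, E9.5 P-CNH, E10.5 P-CNH, P, St1, NSB, RN and PP to CLE, where 1 of 3 pools was not detected. No neighbours differed for either. Pdgfrb ran from E10.5 P-CNH through St5, E10.5 and E9.5 CNH, St1, E9.5 P-CNH, E11.5 CNH, RN, NSB, PP and P to E11.5 P-CNH. It ended with E12.5 CNH, A, CLE and E13.5 CNH. Neither E13.5 CNH array detected it, so the size of that last step is not given. Pdgfrb was detected on 1 of 2 P arrays, 1 of 3 A arrays and 2 of 3 CLE arrays.

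The genes whose fitted means followed each member most closely over the 16 regions were sought among 10292 gene symbols, by Pearson r. For the ligands they were Rab32 (0.91), Inadl (0.90) and Sec14l4 (0.89) with Cxcl12, Col18a1, Alcam and Etv1 with Pdgfa (each 0.81), Mgp (0.95), Osbpl6 (0.95) and Adap1 (0.94) with Pdgfc, Alg8 (0.91), Vasn (0.88) and Orai3 (0.84) with Vegfa, and Col24a1 (0.90), Ece1 (0.89) and Hlx (0.89) with Tgfb1. For the receptors they were Sema3f (0.90), Nfe2l1 (0.89) and Abhd4 (0.88) with Cxcr4, Rpn2 (0.88), Lhfp (0.87) and Fam110b (0.85) with Pdgfra, and Slc12a7 (0.94), Otud7b (0.92) and Mesdc1 (0.89) with Pdgfrb.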

How the data were processed

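The authors deposited, for 45281 probes and 36 pools, the mean bead intensity, not normalised and with background still in it, and a detection p-value against the negative-control beads of the same array. Their own normalised values and batch-corrected values are not in the deposited table. Intensities were background-corrected by normexp (offset 16) with negative controls inferred from the detection p-values, quantile-normalised and put on the log2 scale with the neqc function (limma 3.58.1, R 4.3.3). Of all probes, 21712 had a detection p under 0.01 on at least 1 array and were tested, and 23569 were left out as detected on none. A linear model held 16 regions and 3 batches, leaving 18 residual degrees of freedom, with empirical Bayes moderation and Benjamini-Hochberg adjustment within each of 14 contrasts. The code was tested on simulated data.

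Every member was named, represented by its probe with the highest mean, with its other probes named where they differed. Of the pathway list, up to 5 called genes per contrast were named, by size of difference, and for likeness 3 genes per member. The members and lists were chosen with earlier results of these data known. A fold against regions where a probe was not detected is given as a lower bound, and a gene of the lists that was detected in only some of those regions is given without a size. Signal over background is the median intensity of detected probes over that of probes with a detection p above 0.5 and had a median of 6.12. Alternatives covered background correction, normalisation, batch, filter, replicate block, probe and each array left out. The VST and RSN steps of lumi and ComBat were not run, since their packages were not installed, and VST also needs bead-level errors. Promoters are from RefSeq. Python 3.11.15, NumPy 2.4.6, pandas 2.3.3 and matplotlib 3.10.9 were used for the rest.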

Additional observations from a re-analysis of the deposited data

How the results depend on the processing

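Numbers of members called were recomputed under 14 settings and with each of 36 arrays left out. With no background correction and with an offset of 100, E10.5 CNH against P-CNH gave 0, the CNH slope 0 and E10.5 CNH against NSB 2, and cyclic loess gave 2 for the last. With no batch term CLE gave 4, St5 against St1 1 and E10.5 CNH against P-CNH 0. With batch means removed first CLE gave 4, RN 0 and the slope 1. With the BeadChip as a fixed block E11.5 CNH against P-CNH gave 1 and the slope 1, and as a random block E11.5 gave 1 and CLE 2. Within batch 1, which holds fewer arrays and no CLE, the counts were 5 for St5 and 5 against St1, 3 for RN, 2 for NSB, 3 for St1, 2 for E10.5 CNH against P-CNH and 4 for E10.5 CNH against NSB. Within batches 2 and 3 the mean of CNH against P-CNH gave 0. With the replicate block the slope gave 1. With the next brightest probe NSB gave 0, RN 0, St1 0 and the slope 1.

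That probe of Pdgfra, detected on 1 array, reversed its direction over the mean of CNH against P-CNH (0.10), at E11.5 (0.10), over the slope (-0.14) and in CLE (0.13). Of the members not called in CLE, Pdgfc reversed with no batch term (0.42) and with BeadChips as random blocks (0.073), Tgfb1 with no batch term (0.32), and Cxcl12 (-0.04) with the replicate block (0.28) and when any of 4 single arrays was left out, while without CLE replicate 1 it was -0.42. Of the counts under the 14 settings, 150 were within 1.5 times the reported ones and 31 were not, and the cause was not tested. The 150 include contrasts with 0 members called both in the report and under the setting, so they do not measure how stable the calls were. Chosen after seeing the data were leaving out CLE replicate 1 with E13.5 CNH replicate 2 (E10.5 CNH against NSB 2, slope 1) and leaving out 1 tail bud stage (slope 1 without E9.5, mean of CNH against P-CNH 0 without E10.5), and leaving E13.5 CNH out of the correlations of ligands with receptors.

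With 1 array left out, the counts ran from 2 to 4 for St5, 1 to 4 for St5 against St1, 0 to 1 for RN, NSB and St1, 0 to 1 for CNH against P-CNH at E10.5, at E11.5 and over the mean, 1 to 2 for E10.5 CNH against NSB and 1 to 4 for the slope. A region left with 1 array was assumed to vary like the others. Without NSB replicate 3, contrasts between batch 1 and the others had no value, nor did those that batch 1 or batches 2 and 3 could not form. Departures of pools from the level of their own region, not the levels themselves, were correlated between pools with the same replicate number. Pools that shared BeadChips correlated in this way at 0.22 between St5 and St1, 0.23 between St5 and RN and 0.37 between the E10.5 regions. In each of these pairs of regions replicates 1 and 2 gave the same value. Pools that did not share BeadChips correlated at 0.24 between PP and P at E7.5, 0.05 at E9.5, and -0.37 and -0.03 for replicates 1 and 2 at E11.5, so the correlation did not follow the BeadChip in every pair. With the replicate block, Cxcl12 in St5 was 2.97 and Pdgfc over the mean of CNH against P-CNH 1.08. Signal over background had a median of 8.64 in batch 1, 4.19 in batch 2 and 5.89 in batch 3, and limits what can be said of Tgfb1, Pdgfrb and Pdgfc where they were near or under detection.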
